A study of Homo sapiens with 12 samples.

Results

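Transcript levels of the hepatocyte nuclear factor 4 receptors, the FOXA forkhead factors and 4 further transcription factors of endoderm-derived epithelia were followed in A549, a cell line from a human lung adenocarcinoma, after siRNA knockdown of FAM60A or SDS3. The members were every probe set annotated to HNF4A, HNF4G, FOXA1, FOXA2, GATA6, CEBPA, CEBPB or NKX2-1, where a probe set is the group of short oligonucleotides that an Affymetrix array reads as 1 transcript. Of the 8 listed genes, 7 had a probe set named for them alone, with 13 probe sets among the 54675 of the array and 7 genes among the 19775 it names in this way. HNF4A was not analysed here. Of the 13 probe sets, 11 had at least 3 of the 12 arrays at log2 5 or more and were tested. The remaining 2, 207456_at of HNF4G and 237086_at of FOXA1, lay under log2 5 on all 12 arrays.

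The FAM60A experiment held 3 arrays of A549 cells with a FAM60A siRNA and 3 with a non-targeting siRNA. The SDS3 experiment held 3 arrays of cells with an SDS3 siRNA and 3 with a non-targeting siRNA of their own, so no control array served both comparisons. RNA was collected 3 days after transfection, and the labels give the siRNA dose as 50 nM, in a protocol that lists no SDS3 siRNA by name. FAM60A is now named SINHCAF and SDS3 is now named SUDS3, and their proteins belong to the SIN3 co-repressor, which carries histone deacetylases. A549 is 1 tumour line. The labels describe triplicate wells and name no separate cultures, so the p-values reflect only how far these samples spread, which may be technical.

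As background, these factors bind DNA in regulatory regions of epithelia that derive from the embryonic gut tube, such as liver, intestine and lung. HNF4A and HNF4G are nuclear receptors that switch on genes of lipid transport and plasma proteins in liver and intestine. FOXA1 and FOXA2 are forkhead pioneer factors, able to bind closed chromatin, and GATA6 is a zinc finger factor of early endoderm and of airway and alveolar development. CEBPA and CEBPB are basic leucine zipper factors, the first linked to terminal differentiation and the second to acute phase and inflammatory genes. NKX2-1 is the homeodomain factor that sets lung identity and drives surfactant genes.

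The promoter windows of FOXA1, CEBPA and GATA6 are shown because these 3 members had a probe set whose response differed between the knockdowns. For GATA6 this was 210002_at, and its other probe set, 229282_at, did not differ at the threshold. Each window runs from 250 bases before the transcript start to 50 bases from the start on, 5′ to 3′ on the gene's strand, and is RefSeq sequence of GRCh38.p14. Capitals mark matches, on either strand, to the searched motifs, and no matches overlap. The windows lie at chr14:37595200-37595499 on the minus strand for FOXA1, at chr19:33302485-33302784 on the minus strand for CEBPA and at chr18:22169339-22169638 on the plus strand for GATA6.
FOXA1 promoter: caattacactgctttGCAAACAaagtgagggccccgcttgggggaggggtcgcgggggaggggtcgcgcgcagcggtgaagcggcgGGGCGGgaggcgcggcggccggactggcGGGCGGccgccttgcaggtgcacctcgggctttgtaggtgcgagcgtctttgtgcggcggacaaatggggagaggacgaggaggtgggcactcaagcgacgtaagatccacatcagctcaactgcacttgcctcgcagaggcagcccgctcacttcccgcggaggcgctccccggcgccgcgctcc
CEBPA promoter: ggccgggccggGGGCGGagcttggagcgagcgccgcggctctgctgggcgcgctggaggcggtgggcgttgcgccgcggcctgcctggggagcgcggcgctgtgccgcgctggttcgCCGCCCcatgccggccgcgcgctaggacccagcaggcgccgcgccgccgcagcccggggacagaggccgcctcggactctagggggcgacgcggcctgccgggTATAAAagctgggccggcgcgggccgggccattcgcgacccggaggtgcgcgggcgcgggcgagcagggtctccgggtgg
GATA6 promoter: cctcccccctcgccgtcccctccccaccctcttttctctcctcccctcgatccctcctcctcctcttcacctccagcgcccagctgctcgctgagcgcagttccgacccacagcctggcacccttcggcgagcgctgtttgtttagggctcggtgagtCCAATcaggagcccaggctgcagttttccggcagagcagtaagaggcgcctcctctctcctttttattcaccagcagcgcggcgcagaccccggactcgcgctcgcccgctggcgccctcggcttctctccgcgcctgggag

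All 3 windows were richer in G and C than the median promoter of the same length, with 69.3% in FOXA1, 80.7% in CEBPA and 66.7% in GATA6, against 58.7% over all promoters. The FOXA1 and CEBPA windows each held 2 GC boxes (GGGCGG), and the GATA6 window held 0. This motif is in 45% of 35114 promoter windows. The CEBPA window held 1 TATA box (TATAAA), found in 11.5% of promoters. The GATA6 window held 1 CCAAT box (CCAAT), found in 34.6%. The FOXA1 window held 1 forkhead motif (TGTTTNC, read here on the opposite strand), found in 18%. No match to the GATA motif AGATAA (10.3% of promoters), the C/EBP motif TTNNGNAA (36.8%) or the E-box CACGTG (7.26%) lay in these 3 windows. A match describes the letters of the window and is not a bound site.

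Both targets were lower in their own knockdown. SINHCAF was at 15.5% and 17.2% of its controls by its 2 probe sets (adjusted p = 8.83e-08 and 1.86e-06), and SUDS3 at 33.4% and 37.2% (adjusted p = 7.23e-06 and 4.28e-06). In the SDS3 knockdown, SINHCAF changed by 0.35 and 0.056 on the log2 scale (adjusted p = 0.00596 and 0.787). In the FAM60A knockdown, SUDS3 changed by -0.28 and 0.040 (adjusted p = 0.225 and 0.743). All adjusted p-values are from limma, a linear model fitted across the 48286 tested probe sets with Benjamini-Hochberg adjustment, and a probe set passed where its adjusted p was under 0.05. Values are log2 of the deposited RMA intensity. The median log2 of an array lay between 7.54 and 7.59 in the FAM60A experiment and between 6.60 and 6.62 in the SDS3 experiment, so levels were not set against each other across experiments, nor between probe sets. The 6 markers of simple epithelium that were looked up, among them keratins and EPCAM, were over log2 5 on all 12 arrays. Markers of leukocytes and endothelium also exceeded log2 5 in part, by 2 of 4 and 3 of 5 genes on all arrays. So did 5 of 5 fibroblast, 5 of 5 intestinal, 5 of 6 hepatocyte and 5 of 6 alveolar type 2 markers. This level therefore does not separate expressed from background signal. In bulk RNA, fewer cells of a type and less RNA per cell cannot be told apart.

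In the FAM60A knockdown, 1 of the 11 tested member probe sets passed as lower, HNF4G, and 0 passed as higher. That is 9.09% of the members, against 26.9% of all tested probe sets in either direction, 12.1% lower and 14.8% higher. In the SDS3 knockdown, 3 passed as lower, for CEBPA, FOXA1 and HNF4G, and 1 passed as higher, for GATA6. That is 36.4% of the members, against 24.2% of all tested probe sets in either direction, 13.2% lower and 11% higher. At an unadjusted p under 0.05, the FAM60A comparison had 0 higher member probe sets as well. The lower members at that threshold were HNF4G, GATA6 (210002_at) and CEBPA. The median change over the 11 was -0.086 in the FAM60A knockdown, against -0.020 over all tested probe sets, and -0.097 in the SDS3 knockdown, against 0.0081.

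**Figure D1:**
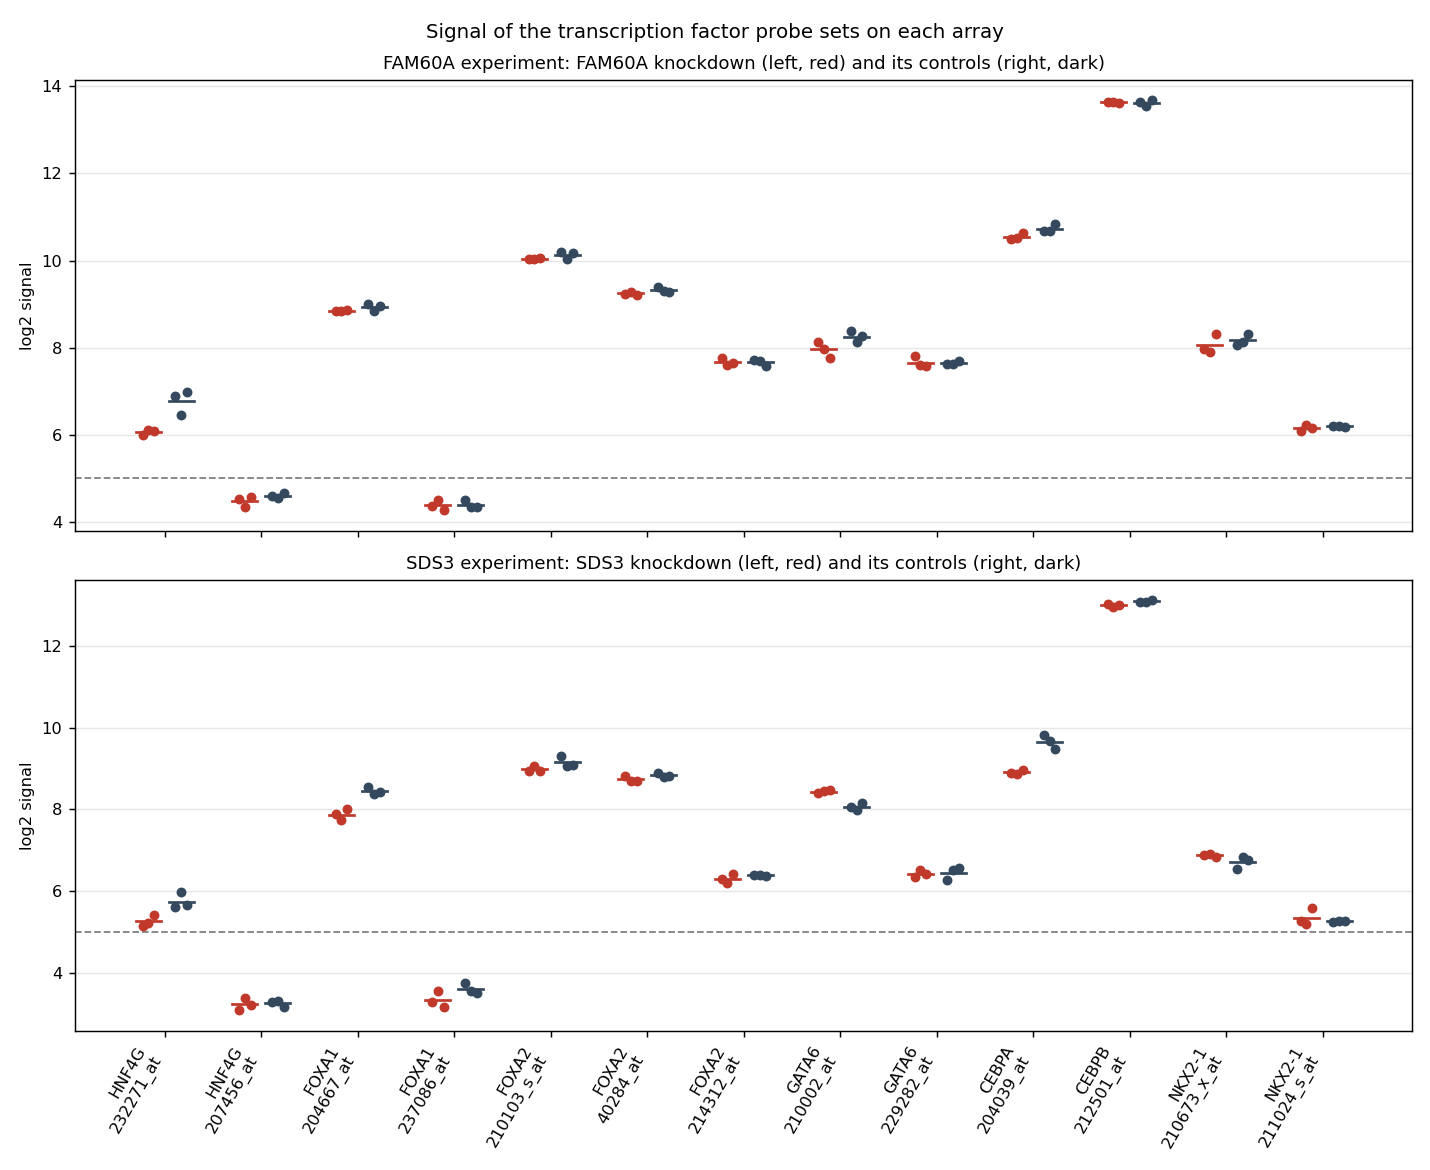
Log2 intensity of each member probe set on every array, with the knockdown arrays (red) left of their own controls (dark) in each experiment; short lines are group means and the dashed line is log2 5. The HNF4G probe set 232271_at is lower in both knockdowns, CEBPA and the brighter FOXA1 probe set are separated from their controls by the widest gaps in the SDS3 experiment, and the GATA6 probe set 210002_at is higher there.

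HNF4G, the paralogue of HNF4A known from intestine, kidney and pancreas, was lower in both knockdowns. Its probe set 232271_at read 5.99, 6.12 and 6.09 (log2) on the FAM60A knockdown arrays, against 6.88, 6.44 and 6.98 on their controls. On the SDS3 arrays it read 5.16, 5.22 and 5.41 in knockdown cells, against 5.60, 5.97 and 5.65 in control cells. In each experiment every knockdown array lay under every control array.

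The HNF4G level was 6.07 ± 0.0663 in FAM60A knockdown cells and 6.77 ± 0.284 in their controls (SD, n = 3 each), which is 61.6% of the control. It fell by 0.70 on the log2 scale (SE 0.12, adjusted p = 0.00172). In SDS3 knockdown cells the level was 5.26 ± 0.132, against 5.74 ± 0.198 in their controls (SD, n = 3 each), which is 71.8%. It fell by 0.48 (SE 0.108, adjusted p = 0.0122). Of all tested probe sets, 3.68% changed by more than HNF4G in the FAM60A knockdown and 8.18% in the SDS3 knockdown. The second HNF4G probe set, 207456_at, read 4.35 to 4.57 in FAM60A knockdown cells and 4.55 to 4.65 in their controls, and 3.07 to 3.39 in SDS3 knockdown cells and 3.16 to 3.31 in their controls. It was under the level filter and gave no second reading of the fall. Averaged with it, HNF4G changed by -0.41 in the FAM60A knockdown and by -0.25 in the SDS3 knockdown, and both still passed.

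FOXA1, the forkhead factor of lung, breast and prostate epithelium, was lower in the SDS3 knockdown. Its probe set 204667_at read 7.89, 7.73 and 8.01 in SDS3 knockdown cells, against 8.54, 8.38 and 8.42 in their controls. The arrays did not overlap, and the highest knockdown array lay below the lowest control array. The mean was 7.87 ± 0.137 in SDS3 knockdown cells and 8.45 ± 0.0828 in control cells (SD, n = 3 each), or 67.2% of the control. FOXA1 fell by 0.57 on the log2 scale (SE 0.0821, adjusted p = 0.00121), and 5.68% of all tested probe sets changed by more.

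After FAM60A siRNA, FOXA1 read 8.85, 8.84 and 8.86, against 9.01, 8.83 and 8.96 in control cells, and the groups overlapped. Its change there was -0.086 (95% interval -0.23 to 0.058, adjusted p = 0.38). The probe set 237086_at of FOXA1, under log2 5 throughout, read 4.27 to 4.50 in FAM60A knockdown cells and 4.34 to 4.51 in their controls, and 3.17 to 3.54 in SDS3 knockdown cells and 3.49 to 3.74 in their controls. These ranges overlap in both experiments.

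FOXA2, the paralogue that acts earliest in endoderm, did not pass in either knockdown by any of its 3 probe sets. The probe set 210103_s_at read 8.93, 9.07 and 8.95 in SDS3 knockdown cells, against 9.31, 9.07 and 9.09 in their controls. Its groups were separated by 0.0060 on the log2 scale, and its change was -0.18 (95% interval -0.36 to 0.0077, adjusted p = 0.16). The suffix _s_at marks probes that can also match other transcripts.

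The other 2 FOXA2 probe sets changed by -0.098 (40284_at, adjusted p = 0.303) and -0.088 (214312_at, adjusted p = 0.398) in the SDS3 knockdown. Their 95% intervals ran from -0.24 to 0.041 and from -0.24 to 0.063. In the FAM60A knockdown the 3 FOXA2 changes were -0.095, -0.081 and 0.015 (adjusted p = 0.324, 0.389 and 0.903), and each pair of groups overlapped. A FOXA2 change as large as the FOXA1 fall in the SDS3 knockdown lies outside the 3 SDS3 intervals.

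GATA6 gave different readings by its 2 probe sets. The probe set 210002_at read 8.40, 8.45 and 8.47 in SDS3 knockdown cells, against 8.05, 7.98 and 8.17 in their controls. Every SDS3 knockdown array lay above every control array. The mean was 8.44 ± 0.0388 in SDS3 knockdown cells and 8.07 ± 0.0962 in control cells (SD, n = 3 each), and it rose by 0.37 on the log2 scale, or 1.29-fold (SE 0.0663, adjusted p = 0.00376). Of all tested probe sets, 12.7% changed by more.

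In the FAM60A experiment the same GATA6 probe set read 8.13, 7.97 and 7.77 in knockdown cells, against 8.38, 8.12 and 8.26 in control cells. The knockdown array at 8.13 lay above the control array at 8.12, so the groups overlapped. The mean was 7.96 ± 0.182 in FAM60A knockdown cells and 8.25 ± 0.129 in their controls (SD, n = 3 each), with a change of -0.30 that just missed the threshold (SE 0.0986, adjusted p = 0.0504). Without FAM60A knockdown replicate 1 the change was -0.38 and passed (adjusted p = 0.0176), and without control replicate 2 it was -0.36 and passed (adjusted p = 0.036). With each of the other arrays left out it did not pass, and over all 6 omissions it ranged from -0.38 to -0.20.

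The second GATA6 probe set, 229282_at, followed neither movement. It read 6.34, 6.53 and 6.42 in SDS3 knockdown cells, against 6.28, 6.51 and 6.56 in their controls (change -0.018, 95% interval -0.22 to 0.18, adjusted p = 0.913). In the FAM60A experiment it read 7.80, 7.60 and 7.57 in knockdown cells, against 7.63, 7.63 and 7.70 in control cells (change 0.0020, 95% interval -0.16 to 0.16, adjusted p = 0.99). Its arrays lay near the array median in each experiment. Averaged over both probe sets, the GATA6 change in the SDS3 knockdown was 0.18 and did not pass (adjusted p = 0.0569).

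The rise of GATA6 in SDS3 knockdown cells also depended on the scaling of the arrays. The 45 spike-in probe sets, which read RNA added during labelling and hybridisation, averaged 0.20 higher (log2) on SDS3 knockdown arrays than on their controls (exact permutation p = 0.2, two-sided) and 0.030 higher on FAM60A knockdown arrays (exact permutation p = 0.8, two-sided). Exact permutation of 3 against 3 arrays cannot go below 0.1. Scaling to these spike-ins lowered every SDS3 change by 0.20, and relative to them GATA6 210002_at changed by 0.17 (adjusted p = 0.257). Under that scaling CEBPA, FOXA1 and HNF4G changed by -0.96, -0.78 and -0.68 and still passed as lower, and the 3 FOXA2 probe sets and CEBPB also passed as lower, so that 7 members were lower and 0 higher. Over all tested probe sets the same scaling gave 1737 higher and 14291 lower in the SDS3 knockdown, against 5320 higher and 6358 lower without it.

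CEBPA, which in lung and liver accompanies terminal epithelial differentiation, had the largest fall among the members in the SDS3 knockdown. It is read by 1 probe set, 204039_at. It read 8.89, 8.88 and 8.97 in SDS3 knockdown cells, against 9.83, 9.68 and 9.49 in their controls. The groups did not overlap. The mean was 8.91 ± 0.0503 in SDS3 knockdown cells and 9.67 ± 0.173 in control cells (SD, n = 3 each), which is 59.4% of the control. CEBPA fell by 0.75 on the log2 scale (SE 0.0885, adjusted p = 0.000415), and 2.98% of all tested probe sets changed by more.

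On FAM60A knockdown arrays CEBPA read 10.48, 10.52 and 10.62, against 10.68, 10.67 and 10.84 in control cells. These groups did not overlap either, but the gap was small. The means were 10.54 ± 0.0721 in FAM60A knockdown cells and 10.73 ± 0.098 in their controls (SD, n = 3 each), a change of -0.19 that did not pass (SE 0.0705, adjusted p = 0.0763). Of all tested probe sets, 32% changed by more.

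CEBPB, the acute phase and inflammatory relative of CEBPA, did not pass in either knockdown. In SDS3 knockdown cells it read 13.03, 12.96 and 13.01, against 13.09, 13.08 and 13.12 in their controls. The groups did not overlap, yet the change was -0.097 (95% interval -0.22 to 0.028, adjusted p = 0.255). In the FAM60A experiment it read 13.64, 13.63 and 13.63 in knockdown cells, against 13.63, 13.55 and 13.68 in control cells (change 0.013, adjusted p = 0.907).

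NKX2-1 did not pass by either of its probe sets, whose suffixes _x_at and _s_at mark probes with shared sequence. The probe set 210673_x_at read 6.89, 6.91 and 6.84 in SDS3 knockdown cells, against 6.55, 6.85 and 6.77 in their controls (change 0.16, 95% interval -0.030 to 0.34, adjusted p = 0.219). In the FAM60A experiment it read 7.96, 7.91 and 8.31 in knockdown cells, against 8.05, 8.14 and 8.32 in control cells (change -0.11, 95% interval -0.35 to 0.13, adjusted p = 0.515). The groups overlapped in both experiments. The probe set 211024_s_at changed by 0.091 in the SDS3 knockdown and by -0.037 in the FAM60A knockdown (adjusted p = 0.552 and 0.715).

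**Figure D2:**
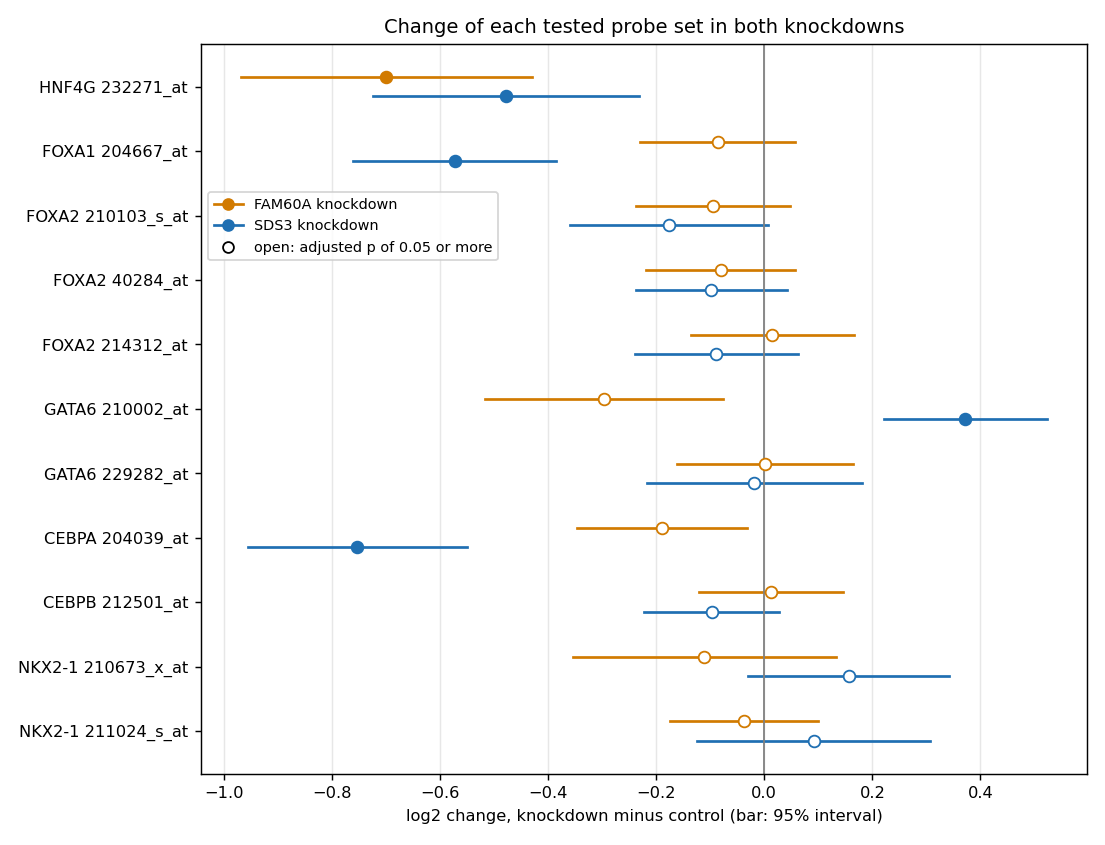
Log2 change (knockdown minus own control) of the 11 tested member probe sets with its 95% interval, FAM60A knockdown in orange and SDS3 knockdown in blue; filled points passed at an adjusted p under 0.05. HNF4G is lower in both, CEBPA (-0.75) and FOXA1 (-0.57) pass as lower and GATA6 210002_at (0.37) as higher in the SDS3 knockdown, the last of which does not pass under spike-in scaling.

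Groups without overlap were counted over the same 11 probe sets. For the FAM60A arrays 2 of 11 had non-overlapping groups (18.2%), both lower, against 41.1% of all tested probe sets and 20.7% for lower alone. For the SDS3 arrays 6 of 11 did (54.5%), 5 of them lower, against 39.4% of all tested probe sets and 20.4% for lower alone. The 6 were HNF4G, FOXA1, FOXA2 (210103_s_at), GATA6 (210002_at), CEBPA and CEBPB.

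Whether the knockdowns moved a member differently was tested directly, as the SDS3 change minus the FAM60A change in a fit of all 12 arrays. Of the 11 member probe sets, 3 passed, 2 below 0 and 1 above 0, which is 27.3% against 16.9% of all tested probe sets in either direction, 10.6% below 0 and 6.28% above. FOXA1 had a difference of -0.49 (SE 0.106, 95% interval -0.71 to -0.26, adjusted p = 0.00578). CEBPA had a difference of -0.56 (SE 0.117, 95% interval -0.81 to -0.31, adjusted p = 0.00434). Both were thus lower after SDS3 knockdown relative to its controls than after FAM60A knockdown relative to its own.

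GATA6 210002_at had the opposite difference, 0.67 (SE 0.127, 95% interval 0.39 to 0.94, adjusted p = 0.00245). Its second probe set had a difference of -0.020 (95% interval -0.27 to 0.23, adjusted p = 0.932). For HNF4G, the member that passed in both knockdowns, the difference was 0.22 and did not pass, with an interval from -0.16 to 0.61 that does not fix which fall was deeper (adjusted p = 0.448). NKX2-1 210673_x_at had a difference of 0.27 (95% interval -0.053 to 0.59, adjusted p = 0.256). The 3 FOXA2 probe sets and CEBPB had differences between -0.11 and -0.018, and their adjusted p-values ran from 0.366 to 0.916.

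**Figure D3:**
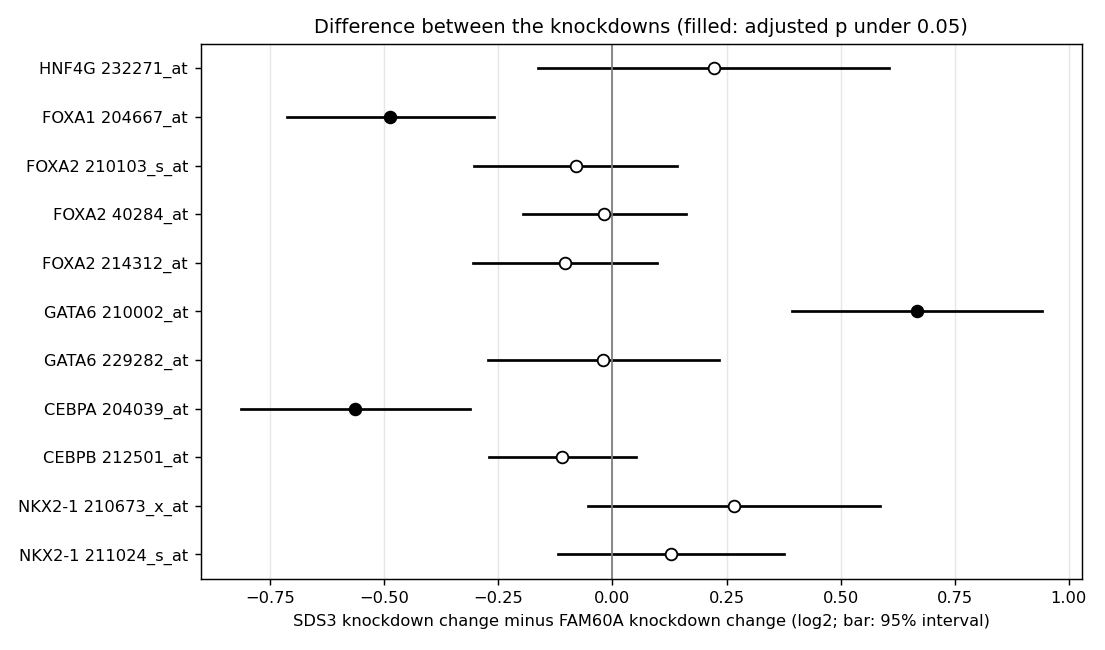
Difference between the knockdowns (SDS3 change minus FAM60A change, log2) for the 11 tested member probe sets, with the 95% interval; filled points passed at an adjusted p under 0.05. FOXA1 (-0.49) and CEBPA (-0.56) lie below 0 and GATA6 210002_at (0.67) above, and the other intervals include 0.

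The genes most alike to a member were the 3 with the smallest root mean square difference of log2 values over the 12 arrays, each array taken relative to the mean of its own controls, among 18614 genes. FOXA1 was matched most closely by CELSR1 (0.0355), PDE4B (0.0399) and SLC30A5 (0.0469), whose SDS3 changes were -0.60, -0.61 and -0.56. CEBPA was matched by NR2F6 (0.0685), PHLPP1 (0.0802) and ABLIM1 (0.081), with SDS3 changes of -0.75, -0.68 and -0.79. The nearest gene to CEBPA, NR2F6, encodes an orphan nuclear receptor.

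HNF4G was matched by CRISPLD1 (0.108), MBD4 (0.115) and IL1RAP (0.118), which changed by -0.65, -0.69 and -0.60 in the FAM60A knockdown and by -0.50, -0.53 and -0.58 in the SDS3 knockdown. GATA6 was matched by ECHDC1 (0.0811), CTBP2 (0.0824) and CPOX (0.0875). These 3 changed by 0.33, 0.27 and 0.28 in the SDS3 knockdown and by -0.22, -0.22 and -0.38 in the FAM60A knockdown. With 4 groups of 3 arrays, many genes can share such a pattern.

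Other transcription factors of endoderm and liver were counted 1 probe set a gene, the brightest, as were all lists. Of the up to 4 genes with the largest passing changes in each list, 22 in the FAM60A knockdown and 20 in the SDS3 knockdown had a further tested probe set, and another one passed in the same direction for 13 and 14 of them. Of 12 tested, 3 passed as lower and 0 as higher in the FAM60A knockdown (median change -0.073), and 5 as lower and 1 as higher in the SDS3 knockdown (median change -0.030). Over all 18621 tested genes, 17.6% passed as lower and 19.2% as higher in the FAM60A knockdown, and 18.8% and 15.8% in the SDS3 knockdown, with medians of -0.023 and 0.0064. In either direction 36.8% and 34.6% of all genes passed, and these shares stand beside every list below. FOXA3, the third FOXA paralogue, read 7.08, 7.30 and 7.69 in FAM60A knockdown cells, against 8.28, 8.04 and 8.08 in control cells. It read 7.23, 7.37 and 7.32 in SDS3 knockdown cells, against 7.99, 7.81 and 7.67 in their controls.

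FOXA3 fell by 0.78 in the FAM60A knockdown (adjusted p = 0.000705) and fell by 0.51 in the SDS3 knockdown (adjusted p = 0.00154), without overlap in either. HHEX, a homeobox factor of liver bud formation, changed by -0.59 in the FAM60A knockdown (adjusted p = 8.13e-05) and by -0.57 in the SDS3 knockdown (adjusted p = 5.67e-05). ONECUT2, a cut-homeobox factor of liver and pancreas, changed by -0.50 (adjusted p = 0.000236) and -0.42 (adjusted p = 0.0151). These 3 genes were the ones of the list that passed as lower in both knockdowns. NR5A2, a nuclear receptor of liver and pancreas, fell by 0.38 in the SDS3 knockdown and had a change of 0.031 in the FAM60A knockdown.

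Among 16 tested airway and lung epithelial factors, 3 passed as higher and 1 as lower in the FAM60A knockdown (median 0.037), and 3 as higher and 5 as lower in the SDS3 knockdown (median -0.010). NFIB, a nuclear factor I gene needed for lung maturation, rose by 1.04 in FAM60A knockdown cells (adjusted p = 6.77e-07) and by 1.03 in SDS3 knockdown cells (adjusted p = 1.57e-05). FOXP1, a forkhead factor of airway epithelium, rose by 0.47 and by 0.70 (adjusted p = 6.7e-05 and 5.06e-05). In the SDS3 knockdown further FOXP1 probe sets passed as higher (0.79, 0.93 and 0.49). Another passed as lower (-0.18, adjusted p = 0.0444), and the rest did not pass. ELF3, an epithelium-specific ETS factor, fell by 1.29 in the SDS3 knockdown (adjusted p = 2.75e-06), and its relative EHF fell by 0.96 (adjusted p = 0.000176). Their changes in the FAM60A knockdown, 0.13 and 0.36, did not pass by these probe sets, and the differences between knockdowns, -1.42 and -1.31, did (adjusted p = 1.77e-07 and 0.000216). The remaining 2 ELF3 probe sets passed as higher in the FAM60A knockdown (0.37 and 0.41) and as lower in the SDS3 knockdown (-1.12 and -1.23). ID2, an inhibitor of basic helix-loop-helix factors, changed by -0.45 in the FAM60A knockdown (adjusted p = 0.000284) and by -0.81 in the SDS3 knockdown (adjusted p = 8.85e-05). KLF5, a Krüppel-like factor, rose by 0.33 in the FAM60A knockdown by its brightest probe set (adjusted p = 0.00591). Its other probe set did not share that direction and did not pass there (-0.38, adjusted p = 0.0938). In the SDS3 knockdown both KLF5 probe sets passed as lower in the fit of all probe sets, with -0.31 and -0.36 (adjusted p = 0.0287 and 0.00692). The difference between knockdowns, -0.64 by the brightest probe set, passed (adjusted p = 0.00114).

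Among the 7 GATA and FOG family genes, 2 passed as higher and 0 as lower in the FAM60A knockdown. In the SDS3 knockdown 0 passed as higher and 1 as lower. That is 28.6% and 14.3% of the list, against 36.8% and 34.6% of all tested genes in either direction. GATA5 rose by 0.33 and GATA3 by 0.23 in the FAM60A knockdown (adjusted p = 0.00954 and 0.0464), and GATA2, a factor of blood and endothelium, fell by 0.39 in the SDS3 knockdown (adjusted p = 0.00687). These calls rest on 1 probe set each. The other 2 GATA2 probe sets gave 0.0049 and -0.074 in the SDS3 knockdown, and averaged over probe sets neither GATA2 (-0.15, adjusted p = 0.0864) nor GATA5 (0.15, adjusted p = 0.0549) nor GATA3 (0.14, adjusted p = 0.0982) passed. The GATA3 call did not pass under spike-in scaling either (0.20, adjusted p = 0.238), nor in the fit of all probe sets (adjusted p = 0.0737).

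Among the 7 C/EBP relatives and Tribbles genes, 1 passed as higher and 3 as lower in the FAM60A knockdown, and 1 as higher and 2 as lower in the SDS3 knockdown. CEBPG, a C/EBP partner without an activation domain, fell by 0.42 in the FAM60A knockdown (adjusted p = 0.000125). The second CEBPG probe set gave 0.049 there and did not pass (adjusted p = 0.628). CEBPD fell by 0.42 by its brightest probe set (adjusted p = 0.000154), while its other probe set rose by 0.34 (adjusted p = 0.0103), so the CEBPD direction is unsettled; in the SDS3 knockdown it changed by -0.26 (adjusted p = 0.0119), and by -0.11 on its other probe set, which did not pass. DDIT3, a C/EBP relative of the stress response, fell by 0.25 in the FAM60A knockdown (adjusted p = 0.0486). It did not pass in the fit of all probe sets (adjusted p = 0.076) or under spike-in scaling (-0.28, adjusted p = 0.0578). TRIB3, a pseudokinase, rose by 0.42 in FAM60A knockdown cells and by 0.27 in SDS3 knockdown cells. The SDS3 rise did not pass under spike-in scaling (0.068, adjusted p = 0.623) or by the second TRIB3 probe set (0.096, adjusted p = 0.398). In the FAM60A knockdown that probe set passed as higher (0.43, adjusted p = 0.000544). TRIB1, which brings C/EBP-alpha to degradation, fell by 0.33 in the SDS3 knockdown (adjusted p = 0.00509).

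Of 13 nuclear receptors and coactivators around HNF4, 3 passed as higher and 0 as lower in the FAM60A knockdown. In the SDS3 knockdown 4 passed as higher and 3 as lower. That is 23.1% and 53.8% of the list, against 36.8% and 34.6% of all tested genes in either direction. PPARGC1B, a coactivator of nuclear receptors, rose by 0.57 in FAM60A knockdown cells (adjusted p = 0.000341) and by 0.66 in SDS3 knockdown cells (adjusted p = 3.71e-05). NCOA1, another coactivator, and PPARA, a fatty acid receptor, rose by 0.38 and by 0.33 after FAM60A siRNA (adjusted p = 0.00027 and 0.00204). Further PPARA probe sets passed as higher in the FAM60A knockdown, with 0.40 and 0.33 (adjusted p = 0.00202 and 0.0325). Another passed as lower (-0.24, adjusted p = 0.0388), and the rest did not pass. Averaged over its probe sets PPARA did not pass (0.085, adjusted p = 0.172). The further PPARGC1B probe sets passed in neither knockdown. PPARG, the lipid-sensing receptor, fell by 0.45 in the SDS3 knockdown (adjusted p = 0.000382). NR2F6 fell by 0.75 there (adjusted p = 2.04e-05), with -0.13 in the FAM60A knockdown, and NR2F1, an orphan receptor, rose by 0.39 (adjusted p = 0.00436) but did not pass under spike-in scaling (0.19, adjusted p = 0.16).

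Known target genes of the factors were described in the same way, as lists chosen with earlier results of these data in view. Of 25 tested liver-type targets of HNF4 and HNF1, 8 passed as lower and 0 as higher in each knockdown, and 5 of them were shared. That is 32% of the list in each, against 17.6% and 18.8% of all tested genes for lower alone. In either direction 36.8% and 34.6% of all tested genes passed. The other 17 did not pass in either direction in each comparison, and the list medians were -0.13 in the FAM60A knockdown and -0.035 in the SDS3 knockdown. APOH, a plasma glycoprotein gene, read 9.42, 9.29 and 9.75 in FAM60A knockdown cells, against 10.15, 10.02 and 10.18 in their controls. It read 7.98, 7.99 and 8.04 in SDS3 knockdown cells, against 10.11, 9.87 and 9.78 in their controls. APOH changed by -0.63 in the FAM60A knockdown (adjusted p = 0.000651) and by -1.92 in the SDS3 knockdown (adjusted p = 1.74e-06). The difference of -1.29 between them passed (adjusted p = 2.13e-05). Its second probe set changed by -0.094 in the FAM60A knockdown, which did not pass (adjusted p = 0.333), and by -0.39 in the SDS3 knockdown, which did (adjusted p = 0.00435).

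The fibrinogen chains FGA, FGG and FGB changed by -1.93, -1.25 and -0.99 in the FAM60A knockdown and by -2.28, -2.20 and -1.84 in the SDS3 knockdown (adjusted p up to 1.94e-05). These FGA values come from a probe set of shared sequence; a further FGA probe set without that suffix passed as lower with the smaller changes of -0.26 and -0.22. CDH17, the liver-intestine cadherin, was chosen after its values were seen. It averaged 8.14 ± 0.118 in SDS3 knockdown cells and 9.62 ± 0.249 in their controls (SD, n = 3 each), a change of -1.49 (adjusted p = 3.04e-05 by limma). In FAM60A knockdown cells it averaged 9.45 ± 0.127, against 9.80 ± 0.0473 in control cells (SD, n = 3 each), a change of -0.35 (adjusted p = 0.00261 by limma). The difference of -1.14 passed as well (adjusted p = 6.13e-05).

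Of 12 tested lung-type targets of NKX2-1, 2 passed as higher and 2 as lower in the FAM60A knockdown (median -0.064). In the SDS3 knockdown 2 passed as higher and 0 as lower (median 0.016). That is 33.3% and 16.7% of the list, against 36.8% and 34.6% of all tested genes in either direction. LPCAT1, an acyltransferase of surfactant lipid synthesis, rose by 0.97 in FAM60A knockdown cells (adjusted p = 2.91e-06) and by 0.25 in SDS3 knockdown cells (adjusted p = 0.00607). ABCA3, the lipid transporter of lamellar bodies, rose by 0.50 and by 0.30 (adjusted p = 0.000122 and 0.0205). LAMP3 and the club cell gene SCGB1A1 changed by -0.27 and -0.25 in the FAM60A knockdown (adjusted p = 0.0206 and 0.00829). Under spike-in scaling LAMP3 passed (-0.29, adjusted p = 0.0449) and SCGB1A1 did not (-0.28, adjusted p = 0.0625). Under the hybridisation spike-ins alone neither of these falls passed (adjusted p = 0.115 and 0.157). In the SDS3 knockdown, the LPCAT1 and ABCA3 rises did not pass under spike-in scaling, with 0.043 and 0.10.

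Of 10 tested FOXA-linked secretory and epithelial genes, 3 passed as lower and 0 as higher in the FAM60A knockdown. In the SDS3 knockdown 4 passed as lower and 0 as higher. That is 30% and 40% of the list, against 36.8% and 34.6% of all tested genes in either direction. AGR2, a disulphide isomerase of mucus-producing cells, changed by -1.83 in FAM60A knockdown cells (adjusted p = 1.08e-07) and by -3.25 in SDS3 knockdown cells (adjusted p = 1.03e-06). Its other probe set passed as lower in both, with -1.45 and -1.33 (adjusted p = 2.12e-06 and 2.62e-05), and did not show the deeper SDS3 fall. XBP1, a secretory pathway transcription factor, changed by -0.64 and -0.40 (adjusted p = 0.000455 and 0.000473), while its second probe set gave -0.027 and 0.061 and passed in neither. TFF1, a trefoil peptide gene, fell by 1.07 in the SDS3 knockdown (adjusted p = 8.91e-05). CDH1 (E-cadherin) changed by -0.49 and -1.52 by its brightest probe set (adjusted p = 0.000567 and 6.37e-06), while a second CDH1 probe set gave 0.014 and -0.21 and passed in neither. The list medians were -0.075 and 0.0016.

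Of 11 tested acute phase and inflammatory targets of C/EBP-beta, 3 passed as higher and 3 as lower in the FAM60A knockdown. In the SDS3 knockdown 3 passed as higher and 4 as lower. That is 54.5% and 63.6% of the list, against 36.8% and 34.6% of all tested genes in either direction. PTGS2, an inducible cyclooxygenase, changed by -0.94 and -2.32 (adjusted p = 2.46e-05 and 1.66e-05). C3, the complement component, rose by 0.80 and by 0.76 (adjusted p = 1.25e-06 and 0.00115). PTX3, a pentraxin, read 4.67, 4.80 and 4.67 in FAM60A knockdown cells, under log2 5, against 7.10, 7.38 and 7.16 in control cells (adjusted p = 1.03e-08). It changed by -0.68 in the SDS3 knockdown (adjusted p = 0.000512). CXCL8, a neutrophil chemokine, rose by 0.66 after FAM60A siRNA (adjusted p = 0.002) and by 0.54 after SDS3 siRNA. The cytokine gene IL6 rose by 0.90 after SDS3 siRNA (adjusted p = 0.000575) and by 0.42 after FAM60A siRNA. C3, CXCL8 and IL6 were the 3 genes of the list that passed as higher in both knockdowns. The list medians were -0.045 and 0.062.

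**Figure D4:**
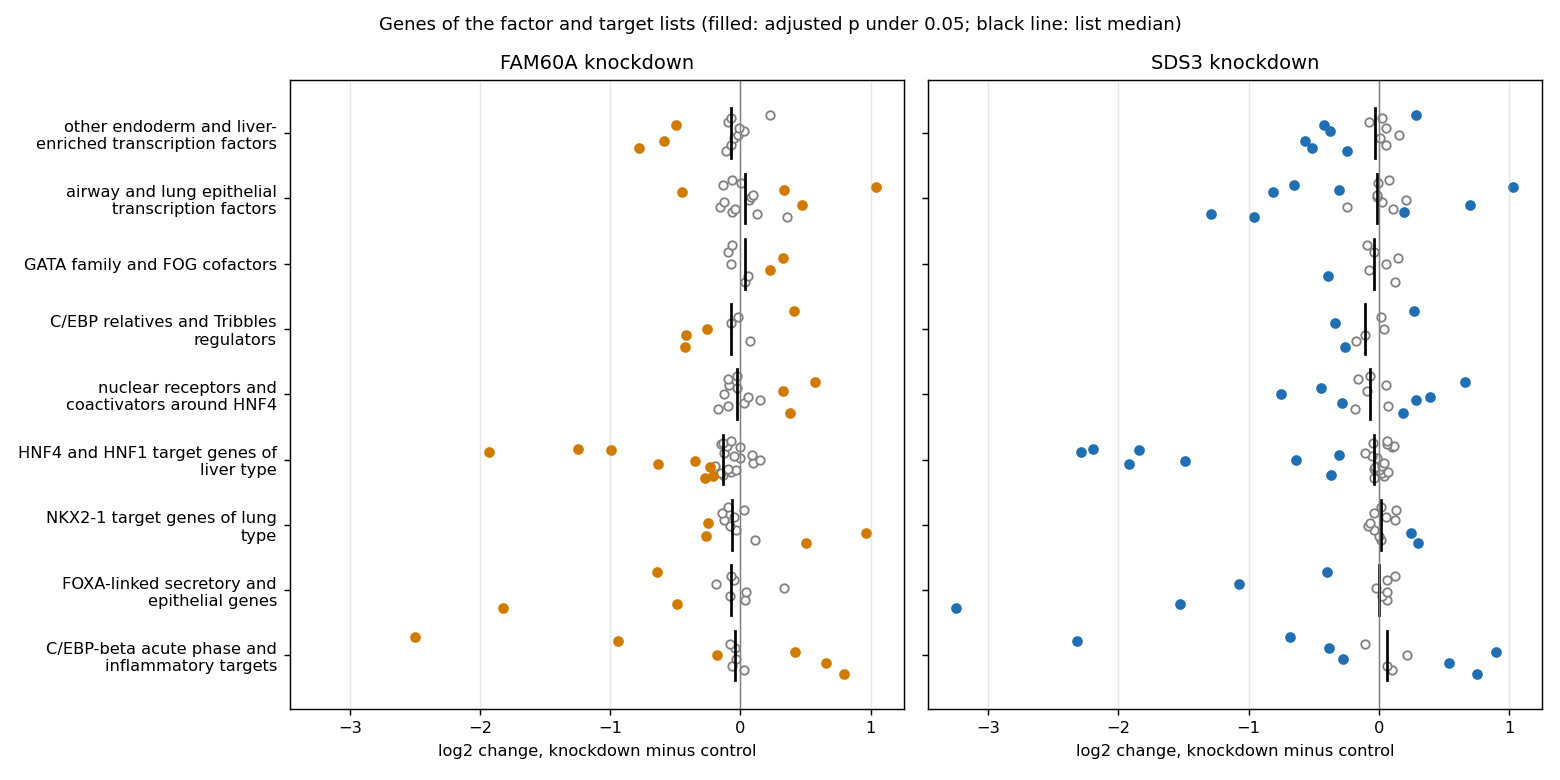
Log2 change (knockdown minus own control) of each tested gene of the 9 factor and target lists, FAM60A knockdown on the left and SDS3 knockdown on the right; filled points passed at an adjusted p under 0.05 and the black line is the list median. Most lists hold genes on both sides of 0. The liver-type targets of HNF4 and HNF1 hold 8 passing genes of 25 in each knockdown (32%), each of them lower. Over all tested genes 17.6% and 18.8% passed as lower. Under spike-in scaling every SDS3 change is 0.20 lower.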

How the data were processed

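RNA of 12 A549 samples was hybridised to a 1-colour Affymetrix array. The authors deposited probe set intensity on a linear scale, normalized with RMA per the submitters' processing notes, which give no version; its log2 was taken here. Whether RMA was run on all 12 arrays jointly is not stated. The array medians of the deposited values differed by experiment, 7.54 to 7.59 (log2) for FAM60A and 6.60 to 6.62 for SDS3. The number of arrays limits precision.

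Groups came from the sample titles. Gene names came from the platform annotation (41097 probe sets with 1 gene symbol, 1801 with several, 11777 with none), and 41043 symbols were brought up to date by Entrez identifier from the RefSeq gene table. The 48286 probe sets that reached log2 5 on 3 or more arrays were tested with limma 3.58.1 (lmFit, eBayes) in R 4.3.3, each knockdown against its own 3 controls, with Benjamini-Hochberg adjustment over all of them and a threshold of 0.05. Differences between knockdowns were a contrast over all 12 arrays. Gene lists used the probe set with the highest mean for each gene, in a separate fit with adjustment over the 18621 genes tested, and no set test. Files were read by data.table (version 1.17.8). The fit was tested on simulated data.

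All member probe sets are given. Each list has its 4 largest passing changes named for each knockdown, and members that passed have the 3 genes most alike. A gene outside this rule is said to be so. The members and lists were chosen with earlier results of these data known. Alternatives covered the filter, 1 probe set or a mean over probe sets for each gene, probe sets of shared sequence, median centring, quantile and spike-in scaling, array weights, other eBayes settings, a joint fit, a replicate block, left-out replicates and stricter thresholds. Scaling to the 18 hybridisation spike-ins was chosen after seeing the data.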

Additional observations from a re-analysis of the deposited data

Results flagged for a closer look

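The response of 3 member probe sets differed between the knockdowns by the test of the difference itself. FOXA1 204667_at had an SDS3 change minus FAM60A change of -0.49, from -0.57 in the SDS3 knockdown and -0.086 in the FAM60A knockdown. CEBPA 204039_at had a difference of -0.56, from -0.75 and -0.19. GATA6 210002_at had a difference of 0.67, from 0.37 and -0.30, while the second GATA6 probe set had -0.020. The adjusted p-values, from limma, were 0.00578, 0.00434 and 0.00245. The experiments had separate controls and different array medians, and the part of that in these differences was not tested.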

How the results depend on the processing

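HNF4G in the FAM60A knockdown passed under all 20 alternatives run (-0.86 to -0.41), and CEBPA in the SDS3 knockdown under all 21 (-0.96 to -0.67). FOXA1 in the SDS3 knockdown passed under all but the minimum change of 1.5-fold. The count of member probe sets lower in the FAM60A knockdown, 1 as reported, became 2 with a filter at log2 7, with a gene's probe sets averaged, with quantile normalization, with spike-in scaling, with all 12 arrays in 1 fit and with array weights, and 3 with 1 probe set a gene and with trended, robust eBayes. The added probe sets were GATA6 210002_at, CEBPA or both. The filter at log2 7 removed HNF4G. With replicates left out it ranged from 1 to 2. With the replicate number as a block it was 2, by GATA6 (adjusted p = 0.0348); same-numbered samples correlated between -0.138 and 0.0185 in their deviations, so the numbers were not taken as pairs, and the block moved no other count of member probe sets. In the SDS3 knockdown the 1 higher member became 0 with probe sets averaged, with spike-in scaling and with a minimum change of 1.5-fold, and the 3 lower members became 7 with spike-in scaling and 1 with the minimum of 1.5-fold. They became 4 with trended, robust eBayes, by CEBPB (adjusted p = 0.0398), and 2 at an adjusted p of 0.01, which HNF4G missed (adjusted p = 0.0122). With that minimum the 2 differences below 0 became 0. List genes higher in the SDS3 knockdown, 14 as reported with 32 lower, became 6 with 47 lower under spike-in scaling. Under the hybridisation spike-ins, chosen after seeing the data, GATA6 210002_at passed in the SDS3 knockdown (0.29, adjusted p = 0.0302). In the FAM60A knockdown, KLF5 had -0.026 with probe sets averaged and -0.38 when those with shared sequence were dropped, in place of 0.33. CEBPD then had 0.34 in place of -0.42, and APOH had -0.094 and no longer passed (adjusted p = 0.286). Over all tested probe sets, 7130 higher and 5849 lower calls in the FAM60A knockdown became 4357 and 3844 with spike-in scaling. Causes were not tested. Signals near log2 5 limit HNF4G, whose second probe set lay below it.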
